A study of Homo sapiens with 6 samples.

Results

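Integrins are the receptors by which cells hold on to the matrix around them, and laminins are large matrix proteins that several of them bind. Described here are the chains of both families that the array named: probe sets whose platform gene symbol is that of an integrin α chain, an integrin β chain or a laminin α, β or γ chain. Of 21448 probe sets tested, which named 17687 genes, 33 met this rule, 1 for each of 33 genes. They comprised 17 integrin α chains, 8 integrin β chains and 8 laminin chains. Chains that the platform table did not name were not analysed here.

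The cells were T24, an established line of human bladder cancer. After 12 h in serum-free medium they were exposed for 24 h either to oxidized low-density lipoprotein (ox-LDL), at 20 µg/mL, or to its vehicle. The 3 vehicle samples are titled CON and the 3 ox-LDL samples OXLDL, with 1 array per sample, and all come from the same line without a genetic change named in the titles. A free-text label calls the same arrays control siRNA and G9a siRNA, against titles, source and treatment fields, which were followed; EHMT2, which encodes G9a, had a mean log2 value of 7.85 ± 0.19 in vehicle and 8.22 ± 0.14 with ox-LDL (SD, n = 3 each), so it was not lower in the arrays labelled with its siRNA. The labels do not tell whether the replicates are independent cultures. The p-values therefore measure only how far these samples scatter, and that scatter may be technical.

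An integrin is a pair of 1 α and 1 β chain that spans the membrane. The α chain largely sets which matrix protein is bound. The tails of many β chains, though not of all, bind talin and kindlin, which switch the receptor on and tie it to actin. The β4 chain is an exception, since its long tail holds keratin filaments in hemidesmosomes through plectin. A laminin is a trimer of 1 α, 1 β and 1 γ chain that is joined before secretion and forms the sheet of a basement membrane, which underlies the urothelium that bladder cancers arise from.

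The deposited values are log2 expression values, so a difference of 1 is a doubling. Values of dim probe sets are pulled together by such processing, which understates their changes. The 95th percentile of 612 negative control probe sets, 5.21, served as the background level. The third vehicle array stood apart: across probe sets its correlation with the other arrays was 0.979 to 0.988, against 0.992 to 0.997 among the other 5. Its GC-rich background probe sets had a mean log2 value of 7.90, against 7.32 to 7.43 on the others. Among the 18 integrin and laminin chains whose vehicle mean lay below that of the median probe set, this array was the highest vehicle array for 13, and among the 15 brighter chains it was the lowest for 10. Values without it are given beside results that it moved by over 1.5 times or across the threshold.

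With ox-LDL, 3 chains rose and 3 fell. Integrin β4 (ITGB4), integrin β8 (ITGB8) and laminin γ1 (LAMC1) were higher, and integrin α2 (ITGA2), integrin β3 (ITGB3) and laminin α1 (LAMA1) were lower, in limma with a Benjamini-Hochberg adjusted p under 0.05 over all probe sets. The sizes ran from 2.39-fold higher for ITGB4 to 1.75-fold lower for LAMA1. Of the 25 receptor chains 2 were called higher, 2 lower and 21 did not pass; of the 8 laminin chains 1 was called higher, 1 lower and 6 did not pass. Across the array 6.77% of probe sets were called, 3.48% higher and 3.29% lower. Among probe sets above background in either group 8.42% were called. In bulk RNA, fewer cells that express a gene and less RNA per cell cannot be told apart.

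The promoters of 3 genes are shown, since ITGA2 fell, LAMC1 rose, and laminin β1 (LAMB1), a chain of the same trimers as LAMC1, had a log2 difference of 0.65 that was not called. Each sequence is the 250 bases before the transcription start in RefSeq (GRCh38.p14), 5′ to 3′ on the gene's strand. Capitals mark GGGCGG or its reverse complement CCGCCC, the box bound by SP1.
LAMC1, chr1:183023170-183023419, plus strand: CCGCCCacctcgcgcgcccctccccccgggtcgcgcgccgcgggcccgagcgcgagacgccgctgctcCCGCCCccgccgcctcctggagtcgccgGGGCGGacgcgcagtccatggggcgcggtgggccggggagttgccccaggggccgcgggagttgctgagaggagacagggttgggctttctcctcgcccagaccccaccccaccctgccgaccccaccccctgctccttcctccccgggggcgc
LAMB1, chr7:108003162-108003411, minus strand: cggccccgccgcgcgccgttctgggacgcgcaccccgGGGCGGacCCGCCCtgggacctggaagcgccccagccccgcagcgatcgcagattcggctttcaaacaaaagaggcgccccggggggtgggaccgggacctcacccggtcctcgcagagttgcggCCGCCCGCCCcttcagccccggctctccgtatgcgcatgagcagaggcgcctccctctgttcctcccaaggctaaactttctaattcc
ITGA2, chr5:52989102-52989351, plus strand: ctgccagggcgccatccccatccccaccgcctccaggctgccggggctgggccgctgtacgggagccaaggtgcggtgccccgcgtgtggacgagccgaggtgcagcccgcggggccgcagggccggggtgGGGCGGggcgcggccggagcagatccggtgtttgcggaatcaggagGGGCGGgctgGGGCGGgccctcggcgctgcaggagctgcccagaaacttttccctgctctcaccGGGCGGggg

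These 3 windows were rich in G and C, with 79.6% for LAMC1, 70.4% for LAMB1 and 76.4% for ITGA2, against a median of 58.0% over all 35116 promoter windows of the table. They held 3, 4 and 4 matches of the SP1 box, those of LAMB1 overlapping in 1 place. Over 22 integrin and laminin genes with a window in the table, the SP1 box was present in 10, against 42.6% of all windows. Only the first window of each of the 22 genes was counted, whereas the shares of all windows count every window, several for some genes. TATAAA was present in 1 of the 22, the window of ITGA6, against 10.7% of all. TGANTCA, the AP-1 site, was present in 0 of 22, against 6.6%, and GGAATG, the TEAD site, in 4, those of ITGA10, ITGA5, ITGB1 and LAMA2, against 11.9%. CCAAT, the box bound by NF-Y, was present in 4 of 22, those of ITGA10, ITGA2B, ITGB8 and LAMB4, against 32.0%. Both strands were searched, N stands for any base, none of these motifs was tested for binding here, and a match is only a description. ITGB4, ITGB3 and LAMA1 had no window in the table, and that of ITGB8 is not printed because it does not begin at the gene's start in RefSeq. The windows of ITGA4 and LAMA4 do not match that start either, and those of ITGB8, ITGA4 and LAMA4 were all counted.

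**Figure D1:**
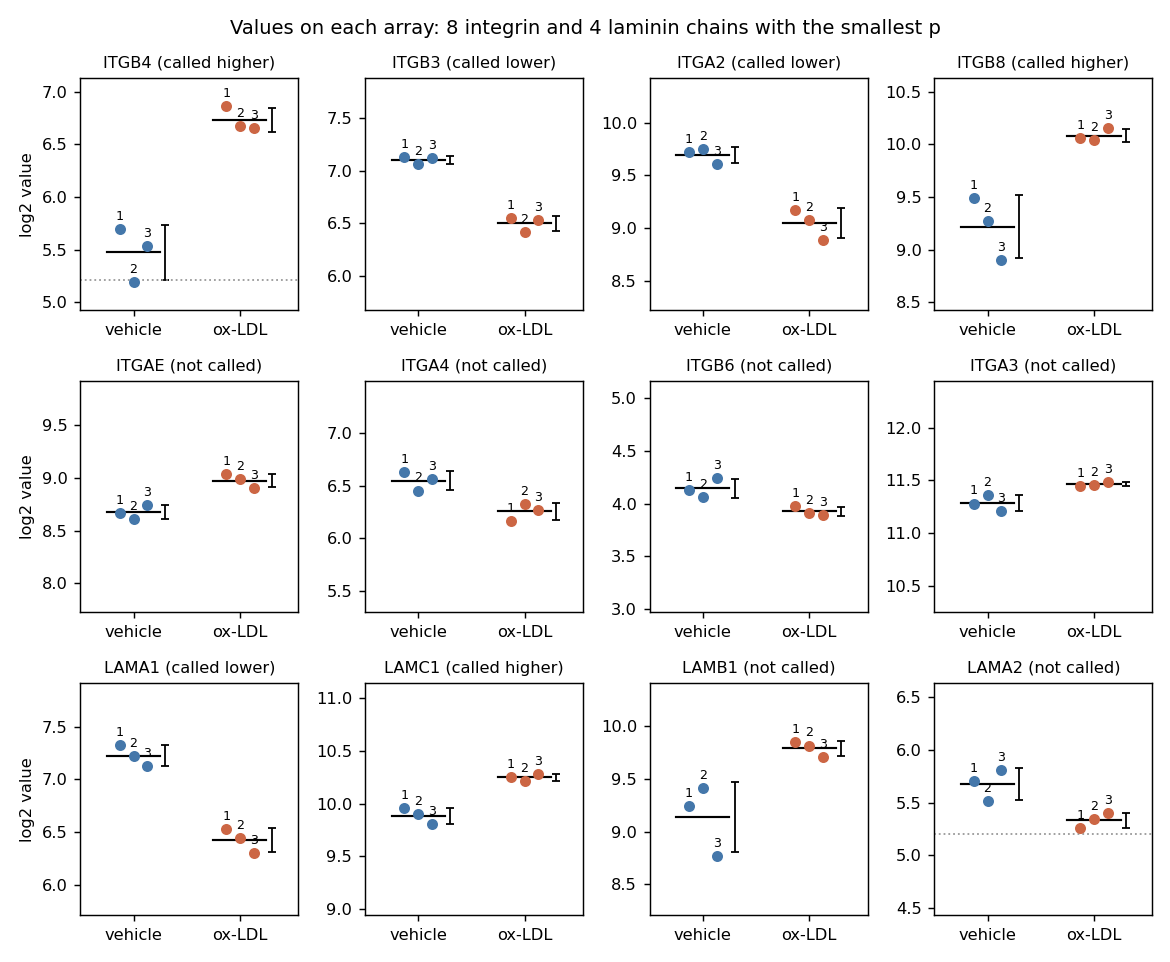
Log2 values on each array (points, numbered by replicate) for the 8 integrin and 4 laminin chains with the smallest p, with group means (lines) and SD (bars, n = 3); the dotted line is the background level of 5.21 where it falls in range, and every panel spans the same height. The groups do not overlap in any panel, whether the chain was called or not, and over all probe sets they do not overlap in 36.8%. ITGA2, ITGA3, ITGB8, LAMA1, LAMB1 and LAMC1 have vehicle replicate 3 below the other 2 vehicle arrays.

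Among the β chains the sharpest rise was that of ITGB4, whose only partner is α6. Its log2 values were 5.70, 5.19 and 5.53 in vehicle and 6.86, 6.67 and 6.65 with ox-LDL. The vehicle values lay near the background level, that of replicate 2 just under it, and the 3 ox-LDL values all lay above it and above every vehicle value. The difference was 1.26 (SE 0.14, 95% confidence interval 0.92 to 1.59, adjusted p = 0.00485 in limma), or 2.39-fold. ITGA6, the α chain of the same receptor, had log2 values of 10.58, 10.64 and 10.11 in vehicle and 10.75, 10.74 and 10.69 with ox-LDL. The ox-LDL values were the higher ones on all 3 arrays, but the difference of 0.29 did not pass (SE 0.14, adjusted p = 0.253), and it was 0.12 without the third vehicle array.

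The β chains 3, 5, 6 and 8 pair with αV in receptors of RGD-bearing ligands such as vitronectin and of latent TGF-β; of these, ITGB8 rose, ITGB3 fell and 2 did not pass. ITGB8, whose αVβ8 receptor binds latent TGF-β, had log2 values of 9.49, 9.28 and 8.90 in vehicle and 10.06, 10.04 and 10.16 with ox-LDL. All ox-LDL arrays were above all vehicle arrays, with the wider spread in vehicle. It rose by 0.86 (SE 0.15, 95% confidence interval 0.51 to 1.22, adjusted p = 0.0208 in limma), or 1.82-fold. ITGB3, the β chain of the vitronectin receptor αVβ3, had log2 values of 7.13, 7.06 and 7.12 in vehicle and 6.55, 6.42 and 6.53 with ox-LDL. Its arrays were tight in both groups and did not overlap. It fell by 0.61 (SE 0.07, 95% confidence interval -0.78 to -0.43, adjusted p = 0.00629 in limma), or 1.52-fold lower.

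ITGB5 and ITGB6 were the 2 that did not pass. For ITGB5, of the receptor αVβ5, the difference was 0.21 (SE 0.11, adjusted p = 0.261 in limma), and 0.12 without vehicle replicate 3. ITGB6, an epithelial activator of latent TGF-β, was at or below background in both groups, with log2 values of 4.13, 4.06 and 4.24 in vehicle and 3.98, 3.91 and 3.89 with ox-LDL. Its groups did not overlap, but at that level the values carry little signal, and the difference of -0.22 did not pass (SE 0.08, adjusted p = 0.140 in limma). The αV chain itself, ITGAV, had a log2 difference of 0.17 (SE 0.11, 95% confidence interval -0.09 to 0.43, adjusted p = 0.363 in limma). Without vehicle replicate 3 it was 0.07, and without vehicle replicate 2 it was 0.26. ITGB1, the β chain shared by most matrix receptors, had log2 means of 12.27 ± 0.04 and 12.34 ± 0.03 (SD, n = 3 each) and a difference of 0.07 (95% confidence interval -0.10 to 0.23, adjusted p = 0.557 in limma).

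Among the 17 α chains, 1 passed. ITGA2, the α chain of the collagen receptor α2β1, had log2 values of 9.73, 9.75 and 9.61 in vehicle and 9.18, 9.08 and 8.89 with ox-LDL. All 3 ox-LDL arrays were lower than all vehicle arrays. It fell by 0.65 (SE 0.10, 95% confidence interval -0.88 to -0.42, adjusted p = 0.0130 in limma), or 1.57-fold lower. Of the other collagen-binding α chains, only ITGA10 and ITGA11 were among the chains analysed here, and neither passed. ITGA10 had a log2 difference of 0.00 (SE 0.07) and a sign that turned when some single arrays were left out. ITGA11, with -0.31 (SE 0.18) and -0.14 without ox-LDL replicate 1, was at or below background in both groups.

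ITGA3, ITGA6 and ITGA7, the α chains grouped here as laminin receptors, were not called. ITGA3, which with β1 binds laminins of the epithelial basement membrane, had log2 values of 11.28, 11.36 and 11.21 in vehicle and 11.45, 11.46 and 11.48 with ox-LDL. The ox-LDL arrays were closely grouped above the vehicle arrays, yet the difference of 0.18 did not pass (SE 0.07, adjusted p = 0.181 in limma). The log2 difference of ITGA7, a laminin receptor chain of muscle, was -0.40 (SE 0.23, adjusted p = 0.305), which was -0.14 without the third vehicle array. ITGA5, the α chain of the fibronectin receptor, had a log2 difference of -0.13 (SE 0.07, 95% confidence interval -0.30 to 0.04, adjusted p = 0.276). ITGA8, at or below background, and the platelet chain ITGA2B had differences of -0.13 (SE 0.19) and -0.16 (SE 0.24), both of which turned upward without the third vehicle array (0.08 and 0.12).

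ITGA4, whose receptors bind VCAM-1 and fibronectin, had log2 values of 6.63, 6.45 and 6.56 in vehicle and 6.16, 6.33 and 6.27 with ox-LDL. The ox-LDL arrays were all lower, and the difference of -0.29 did not pass (SE 0.08, adjusted p = 0.0869 in limma). Its relative ITGA9 had a log2 difference of -0.19 (SE 0.13), which was -0.05 without the third vehicle array. ITGAE, the α chain of the E-cadherin receptor of epithelial lymphocytes, had log2 values of 8.67, 8.61 and 8.74 in vehicle and 9.03, 8.99 and 8.91 with ox-LDL. All ox-LDL arrays were higher, and its difference of 0.30 (SE 0.08, adjusted p = 0.0646) passed without the third vehicle array (0.33, adjusted p = 0.0291) and with equal array medians (adjusted p = 0.0478).

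The remaining chains known mainly from leukocytes did not pass. ITGAL, ITGAM, ITGAX and ITGAD, which pair with β2, had log2 differences of -0.27, -0.38, -0.21 and -0.12, and ITGB2 itself 0.25 (SE 0.11, adjusted p = 0.186 in limma). ITGB7, partner of αE and α4, had a difference of -0.24 (SE 0.12). The difference of ITGAM was -0.13 and that of ITGAX -0.06 without the third vehicle array. Without ox-LDL replicate 2 those of ITGB7, ITGAL and ITGB2 were -0.11, -0.17 and 0.16, and that of ITGAD ran from -0.22 to -0.06 with 1 array left out. Of 10 leukocyte markers listed 9 were measured, 5 of them at or below background in both groups, among them PTPRC, the pan-leukocyte marker CD45 (log2 means 4.19 and 4.09). The other 4 were above background in both groups. Their log2 means in vehicle and with ox-LDL were 7.545 and 7.186 for CD14, 7.310 and 7.191 for CSF1R, 5.951 and 5.770 for SPI1, and 5.503 and 5.441 for CD3E. The third vehicle array was the highest vehicle array for CD14, SPI1 and CD3E, though not for CSF1R. The log2 of the summed level of all 9 markers ran from 8.97 to 9.20 in vehicle and from 8.86 to 8.95 with ox-LDL. The part of that level in these values was not tested.

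**Figure D2:**
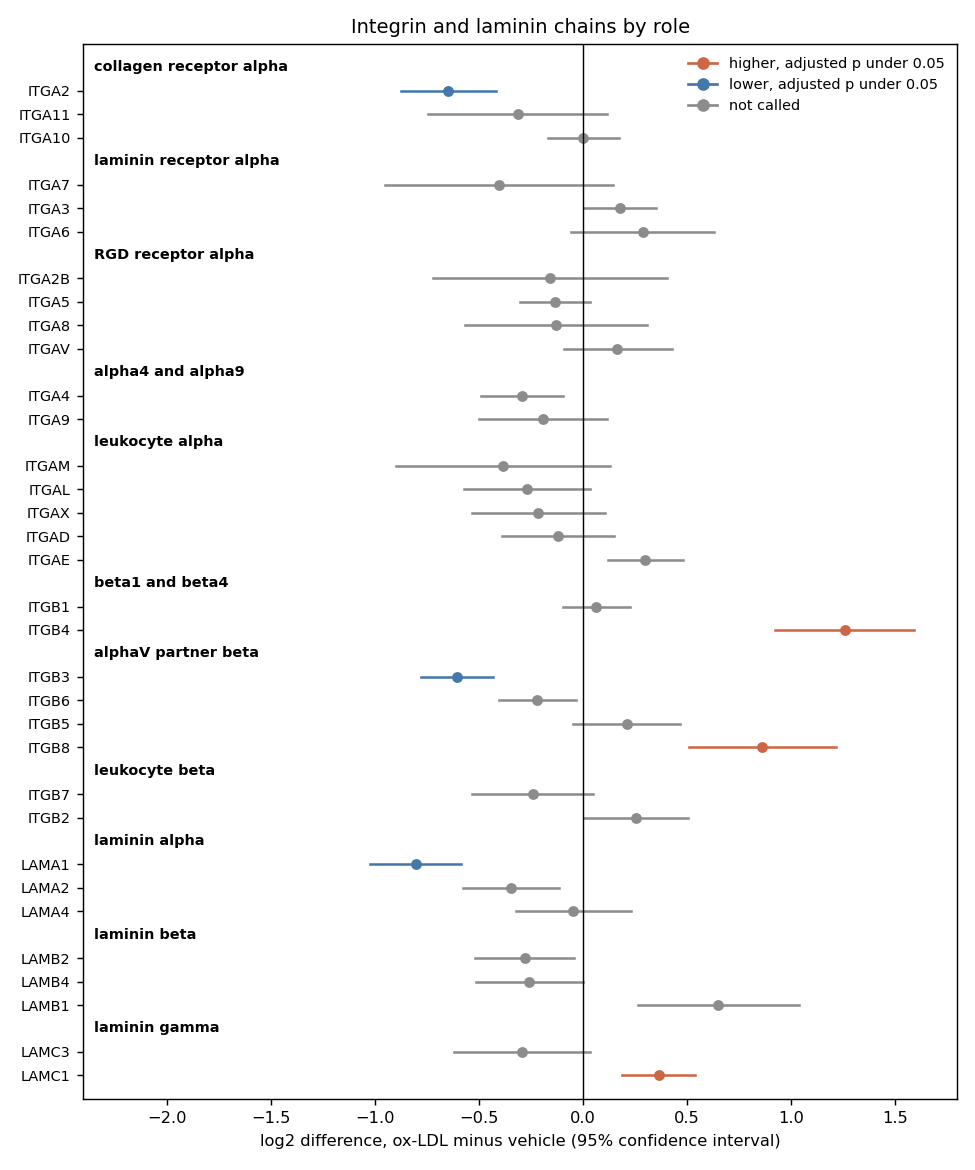
Log2 difference, ox-LDL minus vehicle, with its 95% confidence interval from limma, for all 33 chains grouped by what they bind or where they are used; colours mark the 6 called chains. The called chains range from -0.80 (LAMA1) to 1.26 (ITGB4), and the interval of LAMB1, 0.26 to 1.04, lies above 0 although it was not called.

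Of the laminin chains, LAMA1, the α chain of embryonic basement membranes, fell and LAMC1, the γ chain of most laminins, rose. LAMA1 had log2 values of 7.33, 7.22 and 7.13 in vehicle and 6.53, 6.44 and 6.30 with ox-LDL. The groups did not overlap, and LAMA1 fell by 0.80 (SE 0.09, 95% confidence interval -1.02 to -0.58, adjusted p = 0.00528 in limma), or 1.75-fold lower. LAMC1 had log2 values of 9.96, 9.90 and 9.80 in vehicle and 10.25, 10.22 and 10.28 with ox-LDL. Every ox-LDL array was higher, and it rose by 0.36 (SE 0.07, 95% confidence interval 0.19 to 0.54, adjusted p = 0.0352 in limma), or 1.29-fold.

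LAMB1, which joins LAMC1 in the β1γ1 dimer of many laminins, had log2 values of 9.25, 9.41 and 8.77 in vehicle and 9.85, 9.82 and 9.71 with ox-LDL. The third vehicle array was the lowest, and the ox-LDL arrays were all above the vehicle arrays. The difference of 0.65 did not pass (SE 0.16, adjusted p = 0.0629 in limma); without the third vehicle array it was smaller and did pass (0.46, adjusted p = 0.0210). Its promoter, like that of LAMC1, is printed above. LAMA2, the laminin α chain of muscle, had log2 values of 5.71, 5.52 and 5.81 in vehicle and 5.26, 5.35 and 5.40 with ox-LDL. These lay just above background and were all lower with ox-LDL, but the difference of -0.34 did not pass (SE 0.10, adjusted p = 0.0851).

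The other 4 laminin chains did not pass. The log2 difference of LAMB2, which can replace β1 in mature basement membranes, was -0.28 (SE 0.10, adjusted p = 0.142 in limma). LAMC3 had -0.29 (SE 0.14), or -0.17 without the third vehicle array, and LAMB4 had -0.26 (SE 0.11). LAMA4, a laminin α chain of blood vessels, had -0.05 (SE 0.12), with a sign that turned without the third vehicle array (0.05). 

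As groups, the receptor chains had a median log2 difference of -0.13 and the laminin chains one of -0.27, against -0.03 over all tested probe sets. Without the third vehicle array these medians were -0.05, -0.17 and -0.01. The α chains had a median of -0.16 (12 of 17 below 0) and the β chains one of 0.14 (5 of 8 above 0). Of all 21448 probe sets 11818 were below 0 and 9630 above. Without the third vehicle array the α chains ITGA8 and ITGA2B moved above 0 (0.08 and 0.12). The median over all 33 chains then went from -0.16 to -0.06, and separate α and β medians were not taken. The groups of arrays did not overlap for 12 of the 25 receptor chains, 6 higher and 6 lower, and for 5 of the 8 laminin chains, 2 higher and 3 lower. Over all probe sets they did not overlap in 36.8%, 19.1% higher and 17.7% lower. The study's own selection, which asked for a p no larger than 0.001 and a change of 1.5-fold or more, took 5 of the 33 chains when limma's unadjusted p was used, against 2.31% of all probe sets. These were ITGB4, ITGB8, ITGA2, ITGB3 and LAMA1.

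Chains that can join in 1 receptor or trimer were set against each other within each array, for 5 pairs chosen after their values were seen. With 3 arrays against 3, the smallest p a two-sided exact permutation test can give is 0.10. The change of ITGB8 exceeded that of ITGB3 by 1.47 on the log2 scale, and that of ITGB4 exceeded that of ITGA6 by 0.97. The change of LAMC1 exceeded that of LAMA1 by 1.17, and the change of ITGA2 less that of ITGB1 was -0.71. In each of these 4 pairs the groups did not overlap (exact permutation p = 0.10, adjusted over the 5 pairs p = 0.12). In all 4 this outcome was fixed by the values of the single chains. For ITGB8 with ITGB3 and for LAMC1 with LAMA1, 1 chain was higher and the other lower on all ox-LDL arrays. For ITGB4 with ITGA6 and for ITGA2 with ITGB1, the gap between the groups of the first chain was wider than the whole range of the second. The permutation test therefore adds nothing to the calls of single chains. LAMC1 less LAMB1 gave -0.29 (SD of the within-array difference 0.28 in vehicle and 0.10 with ox-LDL, exact permutation p = 0.20), with overlapping groups, and -0.14 without vehicle replicate 3.

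Single arrays decided some of the 6 calls. ITGB4, ITGB3 and LAMA1 passed with any 1 array left out, at adjusted p up to 0.0347, 0.0477 and 0.0394. ITGA2 did not pass without vehicle replicate 2 (adjusted p = 0.0510) or ox-LDL replicates 2 or 3 (0.0687 and 0.0615). ITGB8 did not pass without vehicle replicate 2 (adjusted p = 0.0596), nor when any ox-LDL array was dropped (0.0932, 0.0906 and 0.0979). LAMC1 passed without vehicle replicate 3 (adjusted p = 0.0233) and did not pass with any other array left out (adjusted p from 0.0584 to 0.150). No log2 difference of the 6 moved by over 1.5 times. The count of called chains was 8 without vehicle replicate 3, where ITGAE and LAMB1 passed too and 12.4% of all probe sets were called. Leaving out vehicle replicate 1 gave 5 called chains and leaving out vehicle replicate 2 gave 3, with 3.76% and 3.35% of all probe sets called. For ox-LDL replicates 1, 2 and 3 in turn the counts were 4, 3 and 3, with 1.44%, 1.42% and 1.56% called.

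**Figure D3:**
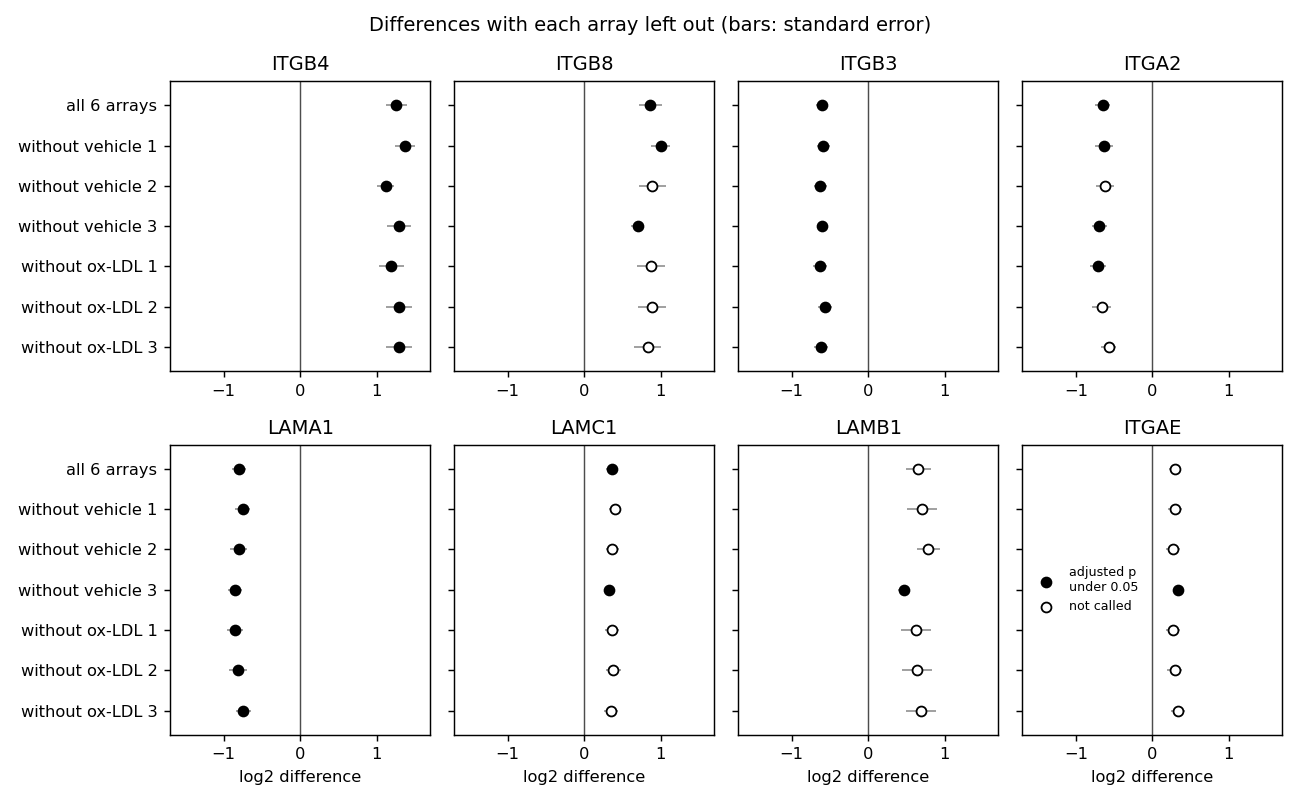
Log2 differences, ox-LDL minus vehicle, with standard errors, for the 6 called chains and for LAMB1 and ITGAE, with all 6 arrays (top) and with each left out in turn; filled points have an adjusted p under 0.05. The differences keep their sign throughout, ITGB4, ITGB3 and LAMA1 are filled in every row, and LAMB1 and ITGAE are filled without the third vehicle array alone.

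Of the genes that work with these chains, 46 of 51 listed were measured, and 8 were called higher and 1 lower, or 19.6% in all, against 6.77% of all probe sets (3.48% higher and 3.29% lower). Of these 46 genes 6.52% were at or below background in both groups, against 21.4% of all probe sets. Among probe sets above background in either group 8.42% were called. The lists were chosen with earlier results of these data known, so the share called is a description and not a test. Among 15 other ligands of integrins, 4 rose, 1 fell and 10 did not pass. THBS1, the matrix protein thrombospondin-1, rose by 1.25 (SE 0.09, adjusted p = 0.00117 in limma) from log2 values of 10.24, 10.24 and 10.46 to 11.53, 11.60 and 11.55. CCN1 and CCN2, matricellular ligands of αV and α6 integrins, rose by 0.73 (SE 0.07) and 0.75 (SE 0.11). FBN1, the microfibril protein fibrillin-1, rose by 0.47 (SE 0.11). ICAM1, the ligand of the β2 integrins and a target of NF-κB, fell by 0.94 (SE 0.10, adjusted p = 0.00365). TNC, tenascin-C, and VCAM1, the ligand of α4β1 that lay at or below background, had differences of -0.31 (SE 0.17) and -0.30 (SE 0.13), which were -0.51 and -0.18 without the third vehicle array. TNC then passed (adjusted p = 0.00999 in limma) and VCAM1 did not. CCN2 did not pass without ox-LDL replicate 1 or 2, and FBN1 passed with all arrays and without vehicle replicate 3, but with no other array left out; it also missed the threshold with equal array medians (adjusted p = 0.0516) and with an unmoderated t statistic (0.115), as CCN2 did with the latter (0.0566).

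Of 13 measured basement membrane partners and other laminin receptors, 3 rose, 0 fell and 10 did not pass in limma. SDC2, a heparan sulfate proteoglycan of the cell surface, went from log2 values of 6.25, 6.15 and 6.42 to 7.08, 6.96 and 7.14 and rose by 0.79 (SE 0.10, adjusted p = 0.00699). SDC1, the main epithelial member of that family, rose by 0.48 (SE 0.07, adjusted p = 0.0121). NID1, the nidogen that links the γ1 chain of laminin to collagen IV, went from 9.76, 9.75 and 9.88 to 10.26, 10.19 and 10.22 and rose by 0.42 (SE 0.07, adjusted p = 0.0210). SDC4, the syndecan of focal adhesions, had a difference of -0.25 (SE 0.07, adjusted p = 0.0805) and SDC3 one of 0.21 (SE 0.06). Without the third vehicle array SDC4 passed as well. The calls of NID1 and SDC1 were lost without any 1 ox-LDL array, that of NID1 also without vehicle replicate 1 or 2, and that of SDC2 without ox-LDL replicate 1 (adjusted p = 0.0501).

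PLEC, which encodes plectin, the linker between the β4 tail and keratin filaments, rose by 0.46 (SE 0.07, adjusted p = 0.0141 in limma), from log2 values of 9.62, 9.67 and 9.66 to 10.12, 10.18 and 10.05. It was the 1 called gene of 5 measured hemidesmosome and tetraspanin partners, and it lost the call without any 1 ox-LDL array. DST, another hemidesmosome linker, had a difference of 0.21 (SE 0.07) and the tetraspanin CD9 one of -0.28 (SE 0.08, adjusted p = 0.0805). Of 13 integrin activators and adaptors 0 passed in limma, and 2 had an unadjusted p under 0.05; FERMT1, the epithelial kindlin, was one, with a difference of 0.29 (SE 0.08, adjusted p = 0.0681). The other was ITGB1BP1, an adaptor of the β1 tail, whose log2 values were 7.86, 8.05 and 6.83 in vehicle and 8.39, 8.50 and 8.58 with ox-LDL. Vehicle replicate 3 was far below the rest, and the difference of 0.91 (SE 0.30, adjusted p = 0.119) was 0.53 without it. Both genes passed without that array.

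**Figure D4:**
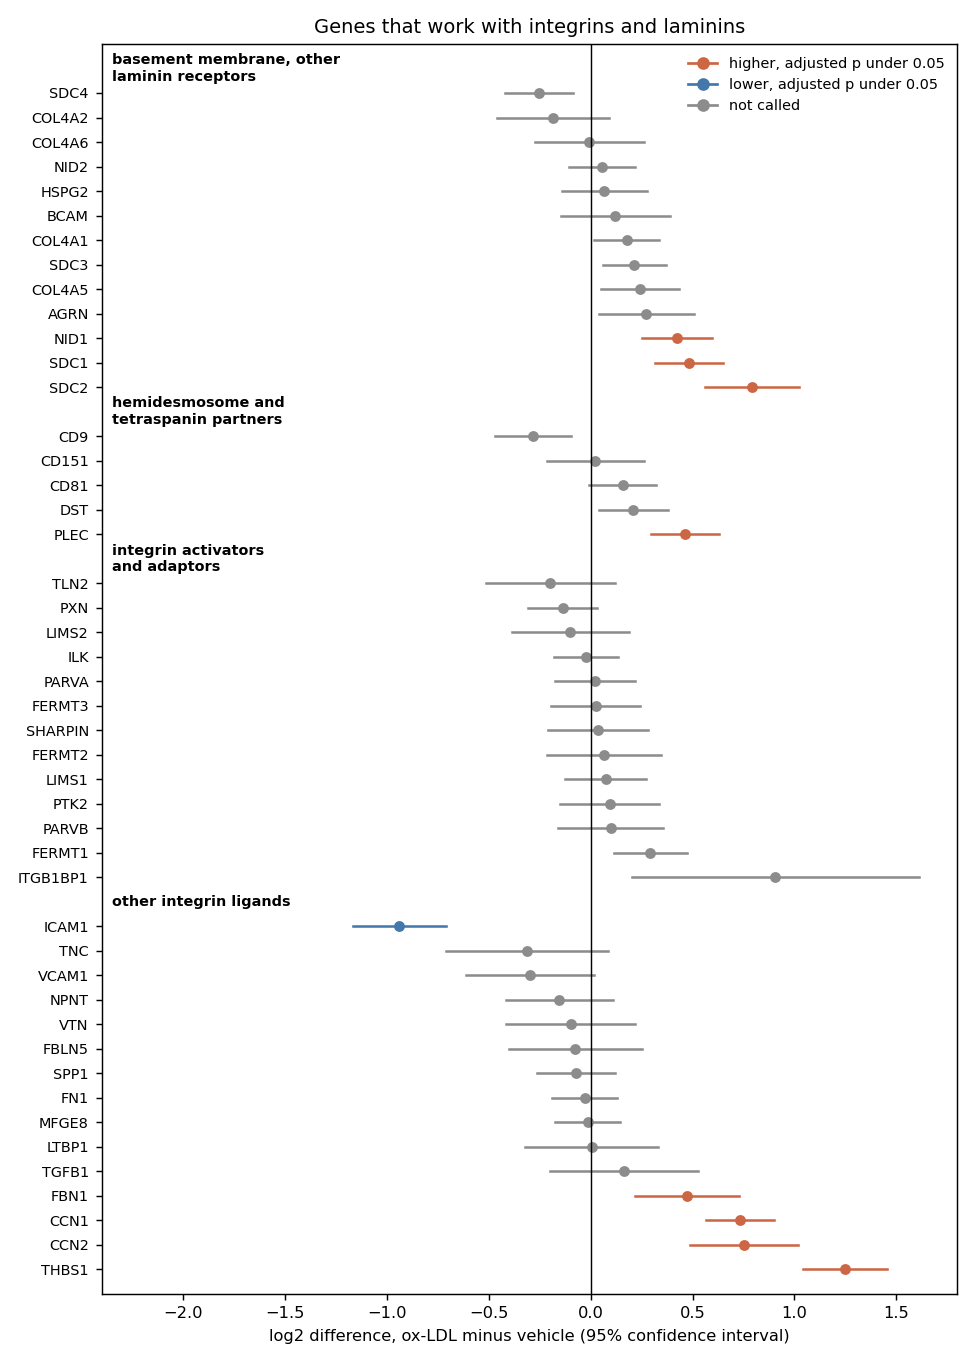
Log2 difference, ox-LDL minus vehicle, with its 95% confidence interval from limma, for the 46 measured partner genes in 4 lists; colours mark the called genes. THBS1 (1.25) and ICAM1 (-0.94) lie at the ends, and all 13 integrin activators and adaptors are grey.

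The labelled cell type was read from markers. Of 15 urothelial and epithelial markers 13 were measured and 0 passed in limma (1 with an unadjusted p under 0.05); the keratins KRT7, KRT8 and KRT18 had vehicle means between 11.89 and 12.10, while CDH1, UPK1B and UPK3A were at or below background. The log2 of their summed level ran from 13.66 to 13.76 in vehicle and from 13.83 to 13.85 with ox-LDL. Of 6 fibroblast markers 5 were measured and 1 was at or below background, with a summed level of 9.34 to 9.91 in vehicle and 9.20 to 9.32 with ox-LDL. The 5 platelet markers, ITGA2B among them, ran from 8.61 to 9.21 and from 8.52 to 8.69, and the 5 endothelial markers from 8.22 to 8.64 and from 8.18 to 8.33. For every platelet and endothelial marker, and every measured fibroblast marker but LUM, the third vehicle array was the highest vehicle array. Sums without that array were not taken. The part of these levels in the differences of the integrin and laminin chains was not tested.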

How the data were processed

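The 6 arrays of T24 RNA fell into 3 per group by title. Values were deposited by the authors on the log2 scale after RMA, per the submitters' processing notes. For RMA's version and settings, and for the array's build, nothing is given in the sources used here. From the 24350 rows deposited, 2902 control probe sets were left out. The platform annotation gave 1 symbol for 17709 of the other 21448, several for 0 and none for 3739. All 33 chains matched RefSeq by gene number and symbol.

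One limma model (limma 3.58.1, R 4.3.3, lmFit and eBayes; figures with matplotlib 3.10.9) over all 6 arrays gave ox-LDL minus vehicle, two-sided p-values adjusted by Benjamini-Hochberg over 21448 probe sets, and 95% confidence intervals. Errors are SD over 3 arrays or limma's SE. The number of arrays limits the precision. The procedure was tested on simulated data with independent noise, equally wide on all 6 arrays for each probe set. No simulated array stood apart, so that test does not bear on calls that depend on single arrays.

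All chains of the rule are accounted for; array values are given for those that passed and for those with the smallest p, up to 8 integrin and 4 laminin chains, and named beside ITGA6, the partner of ITGB4, added after its values were seen. Of each partner list, genes that passed and the 2 with the smallest p among the rest are named. The members and lists were chosen with earlier results of these data known. Alternatives were 3 other scalings, a filter on dim probe sets, leaving out each array, array weights, a robust fit with an intensity trend, a t statistic without moderation, a block for the replicate number and the study's selection. Promoter windows come from RefSeq, GRCh38.p14.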

Additional observations from a re-analysis of the deposited data

How the results depend on the processing

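Of the 33 chains, ITGB4, ITGB3 and LAMA1 passed in all 13 alternatives they entered; they were too dim for the filter on brighter probe sets. The count of called probe sets, 1451, was 2608 among the brighter probe sets alone, 2649 with an intensity trend and robust fit, 3962 with array weights, 550 with the replicate number as a block and 496 by the study's selection. Called laminin chains, 2, were 1 with the replicate block and 1 by the study's selection. Called partner genes, 9, were 15 among the brighter probe sets, 15 with array weights, 4 with the replicate block and 5 by the study's selection. With 1 array left out, called probe sets ran from 305 to 2670, integrin chains from 2 to 5, laminin chains from 1 to 3 and partner genes from 3 to 14. Same-numbered arrays had correlations of -0.01, 0.03 and 0.02 between their deviations from the group means. With 3 arrays per group and vehicle replicate 3 apart from the rest, these cannot settle whether the replicate numbers pair the arrays. The block left 3 of 25 integrin chains called, without ITGB8 (adjusted p = 0.0586), which was also lost with an unmoderated t statistic (adjusted p = 0.0873); LAMC1 was lost with the block (adjusted p = 0.108), as were CCN2, FBN1, SDC1, NID1 and PLEC (0.0597 to 0.107). Signs turned for 4 uncalled chains. With array weights ITGA8 was 0.043 and ITGA2B 0.035. With 1 array left out ITGA8 ran from -0.247 to 0.079, ITGA2B from -0.353 to 0.123 and LAMA4 from -0.156 to 0.051, each above 0 without vehicle replicate 3, and ITGA10 from -0.018 to 0.040, below 0 without vehicle replicate 1 or 2 or ox-LDL replicate 3. LAMB1 and ITGAE passed with array weights, with the intensity trend and among the brighter probe sets. The causes of these shifts were not tested. Chains near background, such as ITGB6, ITGA8 and ITGA11, give little information at this signal.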

Other observations

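Some of the chains are neighbours in the genome. LAMB1 and LAMB4 are adjacent protein-coding genes on chromosome 7 in RefSeq, and their log2 differences had opposite signs, 0.65 (SE 0.16) and -0.26 (SE 0.11), neither of them called. ITGAM, ITGAX and ITGAD follow one another on chromosome 16, and none of their differences, -0.38, -0.21 and -0.12, was called.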
